A study of Mus musculus with 40 samples.

Results

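The unfolded protein response and the integrated stress response were followed in the mouse aorta through 10 genes: Atf4, Atf3, Ddit3, Chac1, Trib3, Asns, Sesn2, Hspa5, Xbp1, and Herpud1. They were chosen by name, as the rows whose gene name was 1 of these symbols, and all 10 were found among the 17402 genes listed in the first experiment and the 15399 listed in the second. The integrated stress response begins when kinases that sense amino acid shortage, heme lack, viral RNA, or misfolded protein in the endoplasmic reticulum (ER) phosphorylate the translation factor eIF2alpha. General protein synthesis then drops, while the transcription factor ATF4 is made and switches on genes for amino acid supply and for recovery of translation. The unfolded protein response is the response to misfolded protein in the ER. Its sensors PERK, IRE1, and ATF6 raise chaperones and degradation factors, IRE1 by splicing the Xbp1 mRNA. Cells that secrete much protein, such as smooth muscle cells that build extracellular matrix, are known to rely on the unfolded protein response.

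The study examined the role of the phosphatase calcineurin (Cn) in the aortic response to angiotensin-II (Ang-II), the vasoconstrictor hormone used to model hypertension and aneurysm, with 40 RNA-seq libraries in 2 experiments. Each library was made from a pool of 3 aortas of male mice after removal of the adventitia and perivascular tissue. In the genotype experiment (22 libraries), Cn-Ctl mice are labelled CnB1-flox without the Cre (Myh11-CreERT2-neg), and SM-Cn-/- mice are labelled CnB1-flox with Myh11-CreERT2-pos. The calcineurin subunit gene could thus be deleted in Myh11-expressing cells, chiefly smooth muscle, while all other cells kept it. Every mouse of this experiment, controls included, had received tamoxifen at 1 mg per day for 5 days at 10 to 12 weeks of age. They were used 6 weeks later, either without treatment or with Ang-II for 2, 6, or 24 h at 1 µg/kg/min from a minipump. In the CsA experiment (18 libraries), C57BL/6J mice were either given no pretreatment (WT) or received the calcineurin inhibitor cyclosporin A (CsA) for 5 days from a minipump at 5 mg/kg/day. Both were then left without Ang-II or given it for 2 or 24 h. Groups held 3 libraries, except untreated Cn-Ctl and Cn-Ctl at 24 h, which held 2; the authors had discarded 1 replicate of untreated Cn-Ctl.

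The groups have limits as models. WT mice carried no pump before Ang-II, so CsA and the pump cannot be told apart. Ang-II was also given by pump, and by the methods control mice had the same surgery without a pump. Ang-II and its pump can therefore not be told apart in any comparison of treated with untreated mice. The study also counts mice with the Myh11 Cre and an unfloxed CnB1 gene among its Cn-Ctl mice, whereas the labels of every Cn-Ctl library here name Cre-negative mice, and with controls as labelled the deletion and the Cre cannot be told apart. Treated Cn-Ctl, WT, and CsA mice were kept only when their systolic pressure exceeded 130 mmHg, whereas treated SM-Cn-/- mice were not selected by pressure. By the methods, a piece of the aorta was tested by PCR for CnB1 recombination, and SM-Cn-/- mice without a shown deletion and CsA mice without a shown block of NFAT dephosphorylation in the thymus were left out. The targeted gene Ppp3r1 ranged from 78.8 to 104 in untreated Cn-Ctl libraries and from 48.8 to 83.5 in untreated libraries labelled SM-Cn-/-, and the groups overlapped at all 4 times, with adjusted p between 0.429 and 0.983. Which exon is removed and whether the remaining transcript is still counted are not given in the sources used here, so the mRNA of this gene does not check the labels, and every genotype direction below rests on libraries as labelled and on that PCR, whose result is not among the data analysed here. Apart from these libraries, the study reports lower CnB and CnA protein in aortic extracts of SM-Cn-/- mice by immunoblot. It also reports weaker induction of Rcan1-4 by Ang-II in their aortas. Replicates are separate pools of aortas, and nothing further is stated of their independence.

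Values are the normalised signal deposited by the authors, close to reads per 1 M reads after scaling between libraries. Assigned reads ran from 2.73 M to 10.3 M per library in the genotype experiment (1 read = a signal of 0.0920 to 0.347) and from 18.98 M to 38.9 M in the CsA experiment (0.0256 to 0.0548). Smooth muscle markers had a summed signal of 16576 or more in every library, with none of the 7 at 0 reads, beside measurable endothelial, macrophage, adventitial fibroblast, and adipose markers. B and plasma cell markers summed to 25.1 at most, skeletal muscle markers to 264 at most, and blood markers ranged from 31.0 to 2484. In such bulk tissue, fewer cells of a type and less RNA per cell cannot be told apart. Changes are log2 fold changes of signal + 0.5, which understate those of genes with low signal, and a gene was called at a limma adjusted p under 0.05 over all protein-coding genes tested, 14424 and 13738 in the experiments.

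Each gene is given below with its Ensembl identifier and its GENCODE position on GRCm38 (chromosome, start, end, and strand). Regulatory sequence is shown for the 6 members whose RefSeq promoter window (GRCm38.p6, 250 bases before to 50 after the start; 10 of 10 members matched) held letters of a motif known from these pathways. The letters searched on both strands were the ER stress element that ATF6 binds with NF-Y (CCAAT, 9 bases of any kind, CCACG), the UPRE bound by XBP1 and ATF6 (TGACGTGG), the C/EBP-ATF composite element or CARE bound by ATF4 and its partners (TGATGNAA), and the CRE (TGACGTCA). In the lines that follow, capitals mark the matched letters, and each stretch reads 5′ to 3′ on the strand of the gene.
Hspa5, ER stress element: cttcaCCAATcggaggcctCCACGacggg
Atf3, CARE on the opposite strand: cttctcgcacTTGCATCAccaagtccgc
Herpud1, CARE on the opposite strand: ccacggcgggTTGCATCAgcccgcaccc
Chac1, CARE on the opposite strand: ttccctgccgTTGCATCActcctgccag
Trib3, CARE on the opposite strand: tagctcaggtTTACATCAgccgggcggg
Asns, CARE on the gene's strand: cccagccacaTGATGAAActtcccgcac

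The Hspa5 stretch lies at chr2:34772020-34772048 on the + strand, 70 to 42 bases before the RefSeq start, within an annotated exon and UTR of 1 GENCODE transcript. The Atf3 stretch (chr1:191183426-191183453, - strand) lies 120 to 93 bases before the start and within an intron of 1 GENCODE transcript, and that of Asns (chr6:7693215-7693242, - strand) lies 33 to 6 bases before it, in an exon and UTR of 1. Those of Herpud1 (chr8:94386307-94386334, + strand; 122 to 95 bases before) and Chac1 (chr2:119351039-119351066, + strand; 203 to 176 bases before) overlap no GENCODE transcript of their gene. That of Trib3 (chr2:152344029-152344056, - strand) lies 4 to 31 bases after the RefSeq start, and its matched letters overlap no GENCODE transcript of Trib3. Of the 32544 distinct promoter windows of this length, 0.12% held the ER stress element, 3.91% the CARE, 0.682% the UPRE, and 1.8% the CRE; the windows of Atf4, Ddit3, Xbp1, and Sesn2 held none of these letters. A match describes the letters, not binding, and no 2 matches overlapped.

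In the genotype experiment, members rose with Ang-II in Cn-Ctl aortas: 4 of 10 at 2 h, 3 at 6 h, and 4 at 24 h, none fell, and over all genes tested 6.23%, 3.97%, and 5.62% were called. The median log2 fold change of the 10 was 0.94, 0.63, and 1.02, beside 0.01, 0.00, and -0.02 over all genes. Atf3 and Atf4, transcription factors of the integrated stress response, rose at 2 and 6 h. Hspa5 and Xbp1, of the ER genes, rose at 2 h and had their highest mean signal at 24 h. Ddit3, another transcription factor among the 10, and Herpud1, another ER gene, were called at none of these times in Cn-Ctl. Libraries labelled SM-Cn-/- had 0 members called at 2, 6, and 24 h (1.13%, 2.34%, and 0.79% of all genes called), with 4, 1, and 2 members at an unadjusted limma p under 0.05; DESeq2 on the recovered reads called 0, 1, and 1. Their medians were 0.01, -0.04, and 0.08. Treated and untreated libraries did not overlap for 5, 6, and 7 members in Cn-Ctl at 2, 6, and 24 h. Of all genes tested 39.1%, 34.0%, and 49.8% did not overlap, so separation alone says little about a member. In libraries labelled SM-Cn-/- it was 3, 1, and 2 members, beside 20.5%, 18.9%, and 19.6%. Between genotypes it was 2 untreated and 4, 3, and 7 at 2, 6, and 24 h, beside 23.5%, 22.2%, 14.4%, and 35.1%. Of all genes called in Cn-Ctl, 75.8% were higher at 2 h and 68.5% at 6 h, and 65.1% and 56.4% after quantile normalization.

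**Figure D1:**
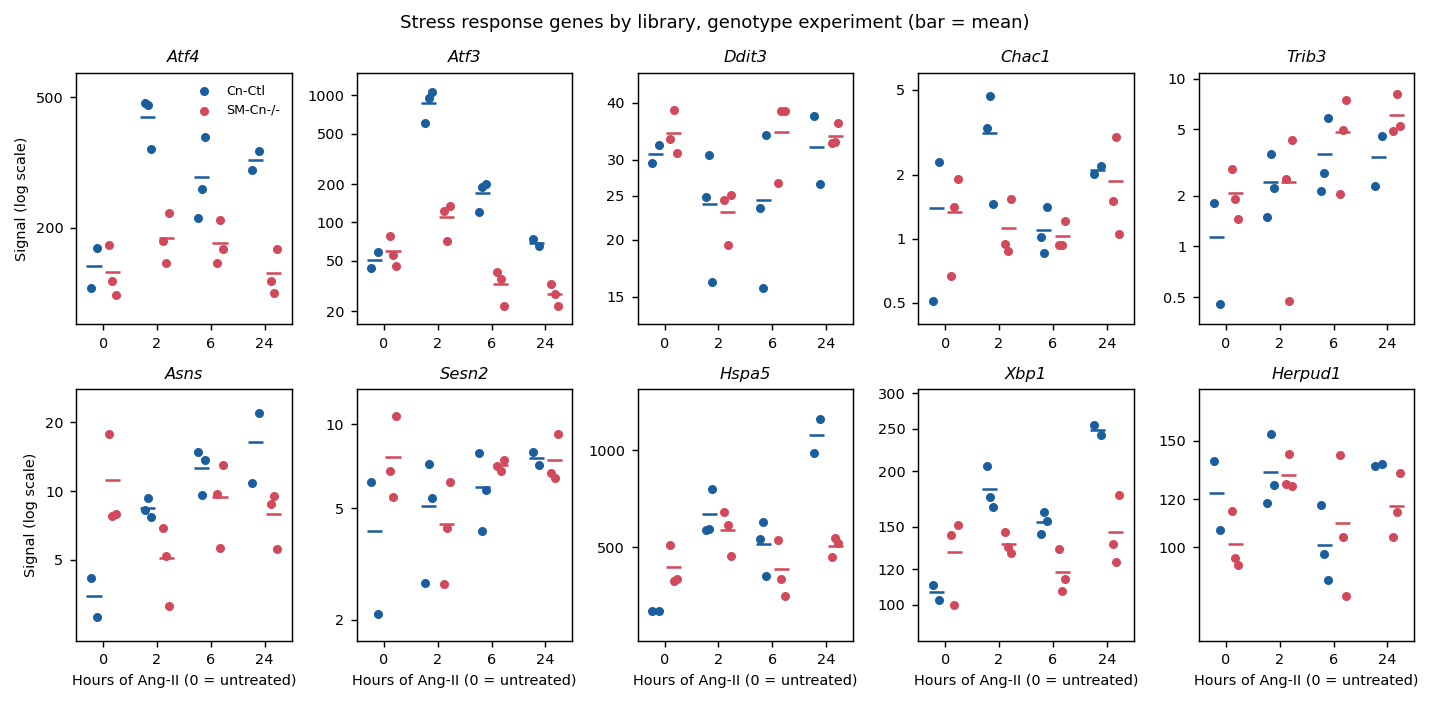
Signal of the 10 genes in each library of the genotype experiment (vertical axis, log scale) against hours of Ang-II, with 0 for untreated; points are libraries and bars are group means of Cn-Ctl (blue) and libraries labelled SM-Cn-/- (red). At 2 h the 3 Cn-Ctl libraries lie between 604 and 1072 for Atf3, above all those labelled SM-Cn-/-, and at 24 h the 2 Cn-Ctl libraries lie at 979 and 1252 for Hspa5.

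Atf4 (ENSMUSG00000042406, chr15:80255184-80257541, + strand), the factor translated when eIF2alpha is phosphorylated, had a signal of 131 and 174 in untreated Cn-Ctl and 482, 476, and 348 at 2 h. At 6 h it was 214, 263, and 379.7, and at 24 h 299 and 344. All treated Cn-Ctl libraries lay above both untreated ones. The transcript rose at 2 h (log2 fold change 1.51 ± 0.24 SE, adjusted p = 0.000186), 6 h (log2 fold change 0.88 ± 0.24 SE, adjusted p = 0.0356), and 24 h (log2 fold change 1.09 ± 0.26 SE, adjusted p = 0.0147). In libraries labelled SM-Cn-/- the signal was 177, 137, and 125 untreated and 182, 156, and 221 at 2 h. The 6 h libraries read 155, 211, and 172, and at 24 h 138, 126, and 172. These groups overlapped at every time, with log2 fold changes of 0.35 (95% CI, -0.09 to 0.79; adjusted p = 0.495), 0.30 (95% CI, -0.14 to 0.74; adjusted p = 0.512), and -0.01 (95% CI, -0.44 to 0.43; adjusted p = 0.996). Compared at the same time, Atf4 was lower in libraries labelled SM-Cn-/- than in Cn-Ctl at 2 h (difference -1.22 ± 0.21 SE, adjusted p = 0.00112) and 24 h (difference -1.15 ± 0.24 SE, adjusted p = 0.00498), without overlap. The difference at 6 h was -0.64 (95% CI, -1.08 to -0.20; adjusted p = 0.134). The difference in the Atf4 response between genotypes was not called by limma at 2, 6, or 24 h, so a smaller response was not shown. The 6 h rise in Cn-Ctl lost its call without untreated replicate 2 or 3 or 6 h replicate 2 or 3 (adjusted p up to 0.372). It also lost it with quantile normalization and when only the groups compared were fitted (up to 0.217). The 24 h rise lost it without untreated replicate 2 or 24 h replicate 3 (up to 0.185) or with only the groups compared (up to 0.0646). The 24 h difference was lost without Cn-Ctl 24 h replicate 3 (0.1).

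Atf3 (ENSMUSG00000026628, chr1:191170296-191218039, - strand), a stress-inducible factor of the ATF/CREB family that ATF4 is known to induce, gave the largest fold change of the 10 at 2 h. Its signal in Cn-Ctl was 43.9 and 58.3 untreated and 604, 959.6, and 1072 at 2 h. After 6 h it was 120.0, 189.6, and 199.8, and at 24 h 73.8 and 65.4. Every treated library stood above the untreated ones, highest at 2 h and nearest the untreated level at 24 h. The rise was 16.7-fold at 2 h (log2 fold change 4.06 ± 0.32 SE, adjusted p = 2.58e-08) and 3.25-fold at 6 h (log2 fold change 1.70 ± 0.32 SE, adjusted p = 0.0024). The change at 24 h was 0.45 (95% CI, -0.27 to 1.17; adjusted p = 0.502). Libraries labelled SM-Cn-/- read 78.0, 55.8, and 45.5 untreated and 124, 71.8, and 136 at 2 h. At 6 h it was 40.6, 35.6, and 22.0, and at 24 h 32.5, 27.3, and 22.1. There the 2 h libraries overlapped with the untreated ones and those at 6 and 24 h all lay below them, but no change was called: 0.86 (95% CI, 0.28 to 1.45; adjusted p = 0.166), -0.87 (95% CI, -1.45 to -0.28; adjusted p = 0.109), and -1.10 (95% CI, -1.68 to -0.51; adjusted p = 0.0756).

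Between genotypes, Atf3 was 7.98-fold lower in libraries labelled SM-Cn-/- at 2 h (difference -3.00 ± 0.28 SE, adjusted p = 1.11e-06), 5.16-fold lower at 6 h (difference -2.37 ± 0.28 SE, adjusted p = 4.36e-05), and 2.55-fold lower at 24 h (difference -1.35 ± 0.32 SE, adjusted p = 0.0136). The groups did not overlap at any of these times, and untreated libraries did (0.20, 95% CI -0.45 to 0.86, adjusted p = 0.988). The response itself differed at 2 h (difference -3.20 ± 0.42 SE, adjusted p = 0.000808) and at 6 h (difference -2.57 ± 0.42 SE, adjusted p = 0.0216), and the difference at 24 h was -1.55 (95% CI, -2.48 to -0.62; adjusted p = 0.131). The 6 h rise in Cn-Ctl lost its call without untreated replicate 2 (0.0787). The 24 h difference between genotypes was lost without Cn-Ctl 24 h replicate 2 or 3 or SM-Cn-/- 24 h replicate 3 (up to 0.097). The 6 h difference in response lost it without Cn-Ctl untreated replicate 2 or 3, SM-Cn-/- untreated replicate 1, Cn-Ctl 6 h replicate 2 or 3, or SM-Cn-/- 6 h replicate 3 (up to 0.326). It was also lost with only the groups compared (up to 0.073).

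Ddit3 (ENSMUSG00000025408, chr10:127290774-127296288, + strand), which encodes CHOP, a factor linked to death under lasting ER stress, lay between 15.7 and 38.7 over the 22 libraries and was called in no genotype comparison. Its log2 fold changes in Cn-Ctl were -0.41 (adjusted p = 0.504) at 2 h, -0.40 (adjusted p = 0.537) at 6 h, and 0.03 (adjusted p = 0.976) at 24 h. In libraries labelled SM-Cn-/- the 2 h change was -0.57 (95% CI, -1.11 to -0.03; adjusted p = 0.358), with the 3 treated libraries (24.4, 19.5, and 25.1) below the 3 untreated ones (33.4, 38.7, and 31.1). The gene shares 68 bases with Mars on the opposite strand, and the strand of counting is not given in the sources used here, so reads of the pair cannot be told apart there.

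Asns (ENSMUSG00000029752, chr6:7675169-7693254, - strand), the enzyme that makes asparagine and a known ATF4 target, read 4.15 and 2.83 in untreated Cn-Ctl and 8.28, 9.38, and 7.73 at 2 h. The 6 h libraries read 14.8, 9.60, and 13.6, and at 24 h 10.9 and 21.9, with all treated libraries above the untreated ones. It rose 3.30-fold at 6 h (log2 fold change 1.72 ± 0.44 SE, adjusted p = 0.0276) and 4.06-fold at 24 h (log2 fold change 2.02 ± 0.48 SE, adjusted p = 0.0154), and the 2 h change was 1.18 (95% CI, 0.27 to 2.10; adjusted p = 0.13). Libraries labelled SM-Cn-/- read 17.8, 7.78, and 7.97 untreated, 6.88, 5.20, and 3.15 at 2 h, 9.70, 5.66, and 13.01 at 6 h, and 8.74, 9.50, and 5.57 at 24 h, already above Cn-Ctl without treatment but not past the test (1.47, 95% CI 0.55 to 2.38, adjusted p = 0.564). Their 2 h libraries all lay below the untreated ones (-1.02, 95% CI -1.84 to -0.20, adjusted p = 0.258). Response differences were not called at 2 h (-2.21, 95% CI -3.44 to -0.97, adjusted p = 0.142), 6 h (-1.92, 95% CI -3.15 to -0.69, adjusted p = 0.477), or 24 h (-2.42, 95% CI -3.72 to -1.12, adjusted p = 0.0826). The gene was thinly covered, with 15 to 119 reads per library. Both calls in Cn-Ctl were lost without untreated replicate 2 or 3, the 6 h call also without 6 h replicate 1 or 3 (adjusted p up to 0.29) and the 24 h call without 24 h replicate 3 (up to 0.234). Both were lost with only the groups compared (up to 0.127 and 0.125).

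The remaining ATF4-linked members had low signal here. Chac1 (ENSMUSG00000027313, chr2:119351229-119354381, + strand), which degrades glutathione, ranged from 0.510 to 4.65 (3 to 29 reads). Trib3 (ENSMUSG00000032715, chr2:152337422-152344032, - strand), a pseudokinase that restrains AKT and ATF4, ranged from 0.456 to 8.11 (2 to 56 reads), and Sesn2 (ENSMUSG00000028893, chr4:132492032-132510501, - strand), a sestrin that restrains mTORC1, from 2.10 to 10.7 (11 to 100 reads). None was called in any of the 13 genotype comparisons. At this depth wide intervals remained, such as 1.01 (95% CI, -0.13 to 2.14; adjusted p = 0.341) for Chac1 and 0.91 (95% CI, -0.42 to 2.24; adjusted p = 0.495) for Trib3 in Cn-Ctl at 2 h, and 1.34 (95% CI, 0.16 to 2.53; adjusted p = 0.35) for Trib3 in libraries labelled SM-Cn-/- at 24 h. Sesn2 lies over 6089 bases of Gm12981 on the same strand, and their reads may be mixed.

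Hspa5 (ENSMUSG00000026864, chr2:34771970-34777547, + strand) encodes BiP, the main ER chaperone and the classical readout of the unfolded protein response. It read 317 and 318 in untreated Cn-Ctl and 566, 571, and 759 at 2 h. After 6 h it was 529, 599.9, and 407, and at 24 h 979 and 1252, every treated library above both untreated ones. It rose 1.97-fold at 2 h (log2 fold change 0.98 ± 0.21 SE, adjusted p = 0.00481) and 3.48-fold at 24 h (log2 fold change 1.80 ± 0.23 SE, adjusted p = 8.79e-05), and the 6 h change was 0.67 (95% CI, 0.23 to 1.11; adjusted p = 0.0792). Libraries labelled SM-Cn-/- read 508, 394, and 399 untreated and 643, 586, and 470.0 at 2 h. At 6 h it was 528, 399.9, and 354, and at 24 h 466, 535, and 516. Treated and untreated libraries overlapped at each time, with changes of 0.38 (95% CI, -0.01 to 0.77; adjusted p = 0.4), -0.03 (95% CI, -0.42 to 0.36; adjusted p = 0.957), and 0.23 (95% CI, -0.16 to 0.62; adjusted p = 0.715). At 24 h Hspa5 was 2.19-fold lower in libraries labelled SM-Cn-/- (difference -1.13 ± 0.21 SE, adjusted p = 0.00231), without overlap, and the response differed (difference -1.57 ± 0.30 SE, adjusted p = 0.0193). The untreated libraries labelled SM-Cn-/- lay above those of Cn-Ctl (0.44, 95% CI 0.00 to 0.88, adjusted p = 0.95), which enters that difference. The 2 h rise lost its call with quantile normalization or without Cn-Ctl untreated replicate 2 or 3 (adjusted p of 0.145 and up to 0.0632). The 24 h difference between genotypes was lost without Cn-Ctl 24 h replicate 3 (0.0806). The difference in response was lost without Cn-Ctl untreated replicate 2 or 3, SM-Cn-/- untreated replicate 1, Cn-Ctl 24 h replicate 3, or SM-Cn-/- 24 h replicate 1 (up to 0.153).

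Xbp1 (ENSMUSG00000020484, chr11:5520659-5525893, + strand), the transcription factor whose mRNA IRE1 splices, read 111 and 102 in untreated Cn-Ctl and 205, 175, and 166 at 2 h. The 6 h libraries read 144, 162, and 155, and at 24 h 254 and 242. All treated libraries lay above the untreated ones. The signal counts both splice forms together, so it measures the amount of Xbp1 mRNA and not its splicing. It rose at 2 h (log2 fold change 0.77 ± 0.18 SE, adjusted p = 0.0113) and 24 h (log2 fold change 1.22 ± 0.20 SE, adjusted p = 0.00102), and the 6 h change was 0.53 (95% CI, 0.15 to 0.91; adjusted p = 0.121). Libraries labelled SM-Cn-/- read 143, 99.9, and 151 untreated, 146, 135, and 130.5 at 2 h, 133, 107, and 114 at 6 h, and 137, 125, and 177 at 24 h, overlapping throughout, with changes of 0.08 (adjusted p = 0.869), -0.14 (adjusted p = 0.745), and 0.16 (adjusted p = 0.788). At 24 h Xbp1 was 1.71-fold lower than in Cn-Ctl (difference -0.78 ± 0.18 SE, adjusted p = 0.0142), and the difference in response was -1.06 (95% CI, -1.60 to -0.52; adjusted p = 0.0668). The 2 h rise lost its call with quantile normalization (up to 0.167) or without Cn-Ctl untreated replicate 2 or 3 or 2 h replicate 1 (up to 0.153). The 24 h difference was lost without Cn-Ctl 24 h replicate 2 or 3 or SM-Cn-/- 24 h replicate 1 or 2 (up to 0.102) or with only the groups compared (up to 0.0845).

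Herpud1 (ENSMUSG00000031770, chr8:94386438-94395377, + strand), an ER membrane protein of the degradation machinery, lay between 83.1 and 154 in the 22 libraries and was called in no genotype comparison. Its change in Cn-Ctl at 2 h was 0.12 (95% CI, -0.31 to 0.54; adjusted p = 0.837), and that in libraries labelled SM-Cn-/- at 2 h was 0.38 (95% CI, 0.01 to 0.76; adjusted p = 0.376), where the 3 treated libraries (127, 142, and 126) lay above the untreated ones (115, 96.1, and 93.3). It shares 535 bases with Gm15890 on the opposite strand.

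Counted over members, 0 of 10 differed between untreated genotypes (0.0139% of all genes called; 2 members at an unadjusted limma p under 0.05, and 0 by DESeq2). At 2 h 2 were lower in libraries labelled SM-Cn-/- (3.7% of all genes), 1 at 6 h (1.98%), and 4 at 24 h (4.94%). The difference in response was called for 1 member at 2 h (0.513%), 1 at 6 h (0.0624%), and 1 at 24 h (0.513%), each with a smaller response in libraries labelled SM-Cn-/-. The members' median differences in response were -1.03, -0.61, and -1.004, beside -0.03, -0.02, and 0.04 over all genes. Of all genes called between genotypes at 2 h, 19.7% were higher in libraries labelled SM-Cn-/-, and 30.8% after quantile normalization. Cell type markers moved with some of these contrasts. At 24 h, 2 of 7 endothelial markers were higher in libraries labelled SM-Cn-/- (summed signal 1146 to 1185, against 505 to 509 in Cn-Ctl) and 1 of 7 smooth muscle markers was lower (24667 to 27525, against 27574 to 49615). In Cn-Ctl 1, 2, and 2 of 7 macrophage markers rose at 2, 6, and 24 h (139 to 357, 171 to 377, and 233 to 326, against 90.8 to 122 untreated), as did 1 of 6 adventitial fibroblast markers at each time and 1 smooth muscle marker at 6 and 24 h. In libraries labelled SM-Cn-/- 1 adventitial marker rose at 6 h, and at 24 h 1 was lower in them than in Cn-Ctl. Between genotypes at 2 h, 1 endothelial marker was higher (694 to 883, against 319 to 563) and 1 smooth muscle marker was lower. Their part in the results was not tested.

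**Figure D2:**
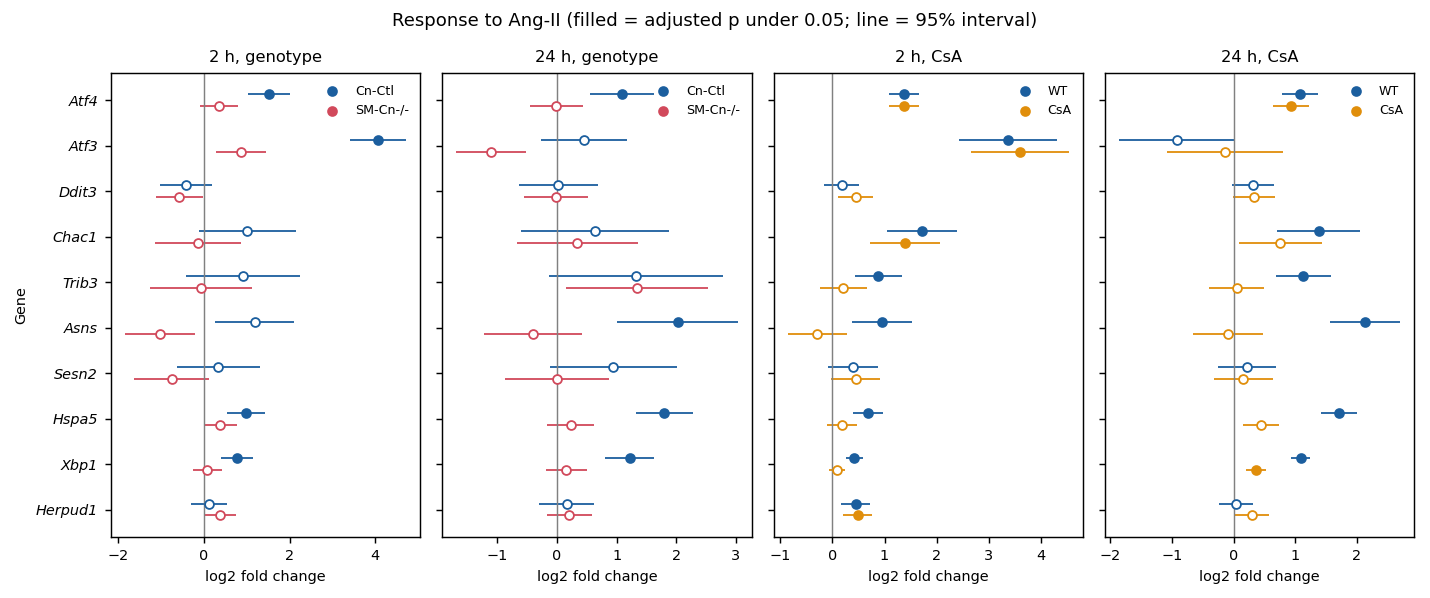
Log2 fold change with Ang-II against untreated (horizontal axis) for the 10 genes (rows) at 2 and 24 h, for Cn-Ctl (blue) and libraries labelled SM-Cn-/- (red) in the left panels and for WT (blue) and CsA (orange) in the right panels; lines are 95% confidence intervals and filled points have an adjusted p under 0.05. Atf3 reached 4.06 in Cn-Ctl, 3.37 in WT, and 3.59 in CsA at 2 h, against 0.86 in libraries labelled SM-Cn-/-.

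In the CsA experiment, the WT aorta answered Ang-II with 8 of 10 members higher at 2 h and 6 higher at 24 h, and none lower, where 21.4% and 35% of all genes tested were called. The medians were 0.78 and 1.08, beside 0.02 and 0.00 over all genes. In CsA aortas 4 members rose at 2 h and 2 at 24 h, none fell, and 20.1% and 8.98% of all genes were called, and the medians were 0.45 and 0.31 beside -0.02 and -0.02. After quantile normalization the WT count at 2 h was 5 instead of 8, since Hspa5, Xbp1, and Herpud1 lost their calls. Of all genes called there 53.2% were higher, and 40.1% after quantile normalization. Before any Ang-II, 5 members differed between CsA and WT (25.2% of all genes called), 4 higher in CsA and 1 lower. At 2 h of Ang-II 1 differed (1.33%) and at 24 h 1 (5.58%). Treated and untreated libraries did not overlap for 9 and 6 members in WT at 2 and 24 h, beside 40.5% and 51.0% of all genes tested. In CsA it was 5 and 4, beside 36.9% and 29.2%. Between CsA and WT it was 6 untreated, 2 at 2 h, and 4 at 24 h, beside 47.8%, 20.2%, and 27.0%.

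**Figure D3:**
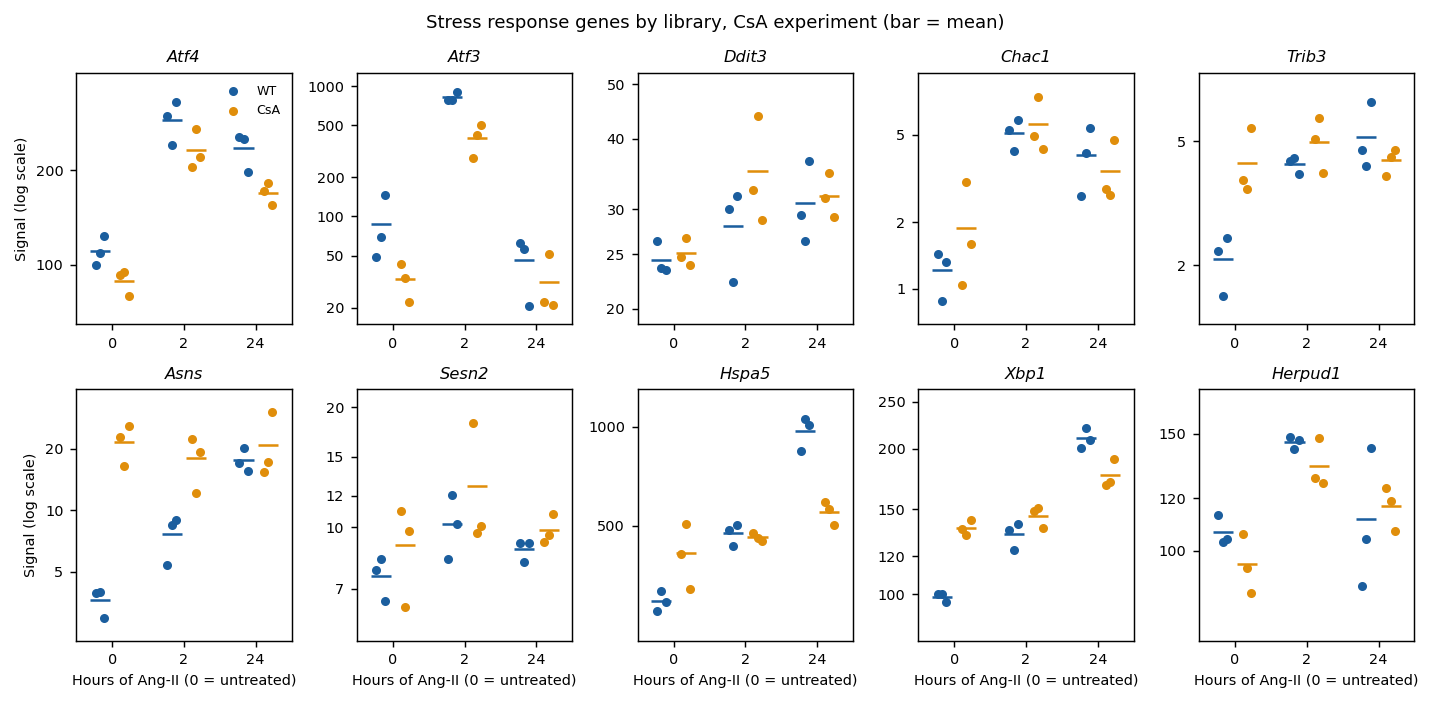
Signal of the 10 genes in each library of the CsA experiment (vertical axis, log scale) against hours of Ang-II, with 0 for untreated; points are libraries and bars are group means of WT (blue) and CsA (orange). The 3 untreated CsA libraries lie between 16.5 and 26.0 for Asns, and the 3 untreated WT libraries between 2.98 and 3.99.

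Atf4 read 99.7, 109, and 124 in untreated WT. With Ang-II it was 298, 242, and 330.1 at 2 h and 255, 252, and 198 at 24 h. The CsA libraries read 92.8, 94.6, and 79.8 without Ang-II. Under Ang-II the values were 206, 270.2, and 221 at 2 h and 172, 182, and 155 at 24 h. In both arms every treated library exceeded every untreated one. Atf4 rose in WT at 2 h (log2 fold change 1.38 ± 0.14 SE, adjusted p = 4.31e-06) and 24 h (log2 fold change 1.08 ± 0.14 SE, adjusted p = 2.74e-05) and in CsA at 2 h (log2 fold change 1.37 ± 0.14 SE, adjusted p = 1.3e-05) and 24 h (log2 fold change 0.93 ± 0.14 SE, adjusted p = 0.00138). The difference between the responses was 0.00 (95% CI, -0.41 to 0.41; adjusted p = 0.996) at 2 h and -0.15 (95% CI, -0.56 to 0.26; adjusted p = 0.659) at 24 h. Compared at the same time, CsA libraries differed from WT by -0.31 (95% CI, -0.60 to -0.02; adjusted p = 0.104) without Ang-II, -0.32 (95% CI, -0.61 to -0.03; adjusted p = 0.231) at 2 h, and -0.46 (95% CI, -0.75 to -0.17; adjusted p = 0.0572) at 24 h. All 4 rises kept their call under every alternative run.

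Atf3 read 49.0, 69.7, and 146 in untreated WT. With Ang-II it was 786, 786, and 903 at 2 h and 62.5, 56.0, and 20.7 at 24 h. In CsA it read 43.1, 33.8, and 22.3 untreated. Under Ang-II the values were 279.5, 425, and 504 at 2 h and 22.0, 51.4, and 21.1 at 24 h. The 2 h libraries stood far above the rest in both arms and the 24 h libraries overlapped with the untreated ones. Atf3 rose 10.3-fold in WT (log2 fold change 3.37 ± 0.44 SE, adjusted p = 6.14e-05) and 12.1-fold in CsA (log2 fold change 3.59 ± 0.44 SE, adjusted p = 8.15e-05) at 2 h, and the changes at 24 h were -0.92 (adjusted p = 0.124) and -0.14 (adjusted p = 0.867). All 3 CsA libraries lay below all 3 WT libraries both untreated, where the gene was lower in CsA (difference -1.30 ± 0.44 SE, adjusted p = 0.0427), and at 2 h (-1.07, 95% CI -2.01 to -0.13, adjusted p = 0.213). The difference in response was 0.23 (95% CI, -1.11 to 1.56; adjusted p = 0.896) at 2 h, an interval too wide to say that the responses were alike. The untreated difference lost its call without CsA untreated replicate 2 or 3 or WT untreated replicate 2 or 3 (up to 0.203), and untreated WT replicate 3, at 146, stood above the other two.

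Asns had the largest called difference of the 10 between CsA and WT without Ang-II. It read 3.96, 3.99, and 2.98 in untreated WT and 22.8, 16.5, and 26.0 in untreated CsA, a 5.32-fold higher level without overlap (difference 2.41 ± 0.27 SE, adjusted p = 0.000385) that kept its call under every alternative run. With Ang-II, WT read 5.41, 8.47, and 9.02 at 2 h and 17.1, 20.2, and 15.7 at 24 h, a rise of 0.95 (adjusted p = 0.0179) and 2.13 (adjusted p = 2.43e-05) on the log2 scale, with every treated library above the untreated ones. CsA read 22.4, 12.1, and 19.4 at 2 h and 15.4, 17.2, and 30.3 at 24 h, overlapping with untreated CsA, with changes of -0.29 (95% CI, -0.86 to 0.28; adjusted p = 0.47) and -0.09 (95% CI, -0.66 to 0.48; adjusted p = 0.857). By 24 h the arms overlapped (0.18, 95% CI -0.38 to 0.75, adjusted p = 0.733), and the response differed (difference -2.23 ± 0.38 SE, adjusted p = 0.00449), whereas at 2 h CsA was still higher (difference 1.17 ± 0.27 SE, adjusted p = 0.0436). The 2 h difference between the arms was lost with quantile normalization, with only the groups compared, and without CsA 2 h replicate 1 or 3 or WT 2 h replicate 1 or 3 (adjusted p up to 0.183 and 0.228). The 2 h rise in WT was lost without WT untreated replicate 3 or 2 h replicate 2 or 3 (up to 0.0811).

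Trib3 was covered by 42 to 188 reads per library. WT read 2.23, 1.59, and 2.45 untreated, 4.34, 4.41, and 3.93 at 2 h, and 4.69, 4.16, and 6.71 at 24 h, and rose at both times (log2 fold change 0.88 ± 0.21 SE, adjusted p = 0.00657; log2 fold change 1.12 ± 0.21 SE, adjusted p = 0.000678). CsA read 3.74, 3.52, and 5.52 untreated, 5.08, 5.95, and 3.95 at 2 h, and 3.88, 4.47, and 4.70 at 24 h. These all lay above untreated WT and overlapped among themselves, with changes of 0.21 (adjusted p = 0.499) and 0.05 (adjusted p = 0.915). It was higher in untreated CsA than in untreated WT (difference 0.87 ± 0.21 SE, adjusted p = 0.00785) and responded less at 24 h (difference -1.08 ± 0.30 SE, adjusted p = 0.0338). The difference in response was lost without CsA untreated replicate 3, WT untreated replicate 2, CsA 24 h replicate 1 or 2, or WT 24 h replicate 3 (up to 0.0901). Both were lost with quantile normalization (up to 0.152 and 0.133).

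Chac1 read 1.44, 0.880, and 1.32 in untreated WT, 5.26, 4.19, and 5.83 at 2 h, and 2.64, 4.12, and 5.36 at 24 h, with each treated library above the untreated ones. In CsA it read 1.04, 3.04, and 1.60 untreated. With Ang-II it was 4.93, 7.42, and 4.31 at 2 h and 2.84, 2.65, and 4.72 at 24 h. It rose in WT at 2 h (log2 fold change 1.71 ± 0.31 SE, adjusted p = 0.00106) and 24 h (log2 fold change 1.38 ± 0.31 SE, adjusted p = 0.00302) and in CsA at 2 h (log2 fold change 1.39 ± 0.31 SE, adjusted p = 0.00633), and the CsA change at 24 h was 0.76 (95% CI, 0.09 to 1.42; adjusted p = 0.141). These calls held under every alternative run. The responses of the arms were not shown to differ (-0.32, 95% CI -1.26 to 0.63, adjusted p = 0.78 and -0.62, 95% CI -1.56 to 0.32, adjusted p = 0.394).

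Sesn2 ranged from 6.30 to 18.3 and Ddit3 from 22.3 to 43.9 over the 18 libraries, and neither was called in any comparison. The largest Ddit3 change was in CsA at 2 h, where 32.5, 43.9, and 28.7 stood above 24.7, 26.8, and 23.9 without overlap (0.45, 95% CI 0.12 to 0.79, adjusted p = 0.0545). The Sesn2 change at 2 h was 0.40 (95% CI, -0.07 to 0.88; adjusted p = 0.235) in WT and 0.45 (95% CI, -0.03 to 0.92; adjusted p = 0.169) in CsA.

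Hspa5 read 276, 318, and 294 in untreated WT, 487, 434, and 504 at 2 h, and 844, 1054, and 1013 at 24 h, every treated library above every untreated one. It rose 1.60-fold at 2 h (log2 fold change 0.68 ± 0.14 SE, adjusted p = 0.00203) and 3.26-fold at 24 h (log2 fold change 1.71 ± 0.14 SE, adjusted p = 5.84e-07). CsA libraries read 411, 508, and 322 untreated, 477, 458, and 449 at 2 h, and 591, 562, and 503 at 24 h, overlapping at both times, with changes of 0.18 (95% CI, -0.11 to 0.47; adjusted p = 0.357) and 0.44 (95% CI, 0.15 to 0.73; adjusted p = 0.0557). Hspa5 was higher in CsA than in WT before Ang-II (difference 0.46 ± 0.14 SE, adjusted p = 0.0226) and lower at 24 h (difference -0.81 ± 0.14 SE, adjusted p = 0.00502), and the 24 h response was smaller (difference -1.27 ± 0.19 SE, adjusted p = 0.00336). This last difference kept its call under every alternative run. The untreated difference was lost without CsA untreated replicate 1 or 2 or WT untreated replicate 1 or 3 (up to 0.106) and with only the groups compared. The 24 h difference was lost with only the groups compared (up to 0.077), and the 2 h rise in WT with quantile normalization (0.0547).

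Xbp1 read 100.4, 100.1, and 96.3 in untreated WT. Under Ang-II the values were 136, 123, and 139.9 at 2 h and 201, 221, and 209 at 24 h. In CsA it read 137, 132, and 143 untreated. With Ang-II it was 148, 151, and 137 at 2 h and 168, 171, and 191 at 24 h. The 3 untreated CsA libraries lay above all untreated WT libraries (difference 0.47 ± 0.07 SE, adjusted p = 0.000881) and the 3 CsA libraries at 24 h below all WT libraries (-0.25, 95% CI -0.41 to -0.10, adjusted p = 0.0556). Xbp1 rose in WT at 2 h (log2 fold change 0.42 ± 0.07 SE, adjusted p = 0.000657) and 24 h (log2 fold change 1.08 ± 0.07 SE, adjusted p = 1.96e-07) and in CsA at 24 h (log2 fold change 0.36 ± 0.07 SE, adjusted p = 0.00734), and the 24 h response was smaller in CsA (difference -0.72 ± 0.10 SE, adjusted p = 0.00319). The CsA rise at 24 h was lost with only the groups compared (up to 0.071), and the 2 h rise in WT with quantile normalization (up to 0.0609).

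Herpud1 rose at 2 h in both arms. It read 113, 103, and 104 in untreated WT, 148, 142, and 147 at 2 h, and 88.3, 104, and 143 at 24 h. In CsA it read 106, 94.2, and 86.5 untreated, 128, 148, and 127 at 2 h, and 124, 119, and 107 at 24 h. The 2 h libraries of each arm lay above its untreated ones (log2 fold change 0.45 ± 0.13 SE, adjusted p = 0.0222 in WT; log2 fold change 0.49 ± 0.13 SE, adjusted p = 0.0163 in CsA), and the difference between the responses was 0.04 (95% CI, -0.35 to 0.43; adjusted p = 0.943). Both rises were lost with quantile normalization, that in WT without WT untreated replicate 2 or 3 or 2 h replicate 1 or 3 (up to 0.0748). That in CsA was lost without CsA untreated replicate 3 or 2 h replicate 2 (up to 0.0806).

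Differences in response between CsA and WT were called for 0 of 10 members at 2 h (0.146% of all genes; 4 members at an unadjusted limma p under 0.05, and 1 by DESeq2) and for 4 at 24 h, all smaller in CsA (9.42%). The members' medians were -0.16 and -0.39, beside 0.00 and -0.02 over all genes. The 4 were Hspa5, Xbp1, Trib3, and Asns, and the untreated libraries enter these differences as well as the comparison before Ang-II. Of all genes called, the share that was higher moved from 55.0% to 39.8% with quantile normalization for untreated CsA against WT, from 29.5% to 19.1% at 2 h, from 15% to 0% for the 2 h difference in response, and from 48.1% to 60.6% for that at 24 h. For the 2 h difference in response, these shares are of 20 genes called and of 1 after quantile normalization. Cell type markers moved with these contrasts. Without Ang-II, 7 of 7 endothelial, 7 of 7 macrophage, and 5 of 6 adipose markers were higher in CsA, with summed signals of 976 to 1136, 285 to 352, and 969 to 1738, against 372 to 634, 106 to 155, and 188 to 384 in WT. In CsA 6 of 7 smooth muscle markers were lower (16576 to 18672 against 25780 to 35353). In WT, 7 of 7 macrophage markers rose by 24 h (280 to 415), as did 2 endothelial, 2 adipose, 2 adventitial, and 1 smooth muscle markers, while 3 smooth muscle and 1 adventitial markers fell. At 2 h 2 smooth muscle markers rose in WT. In CsA 4 of 7 macrophage markers fell (160 to 178) and 1 smooth muscle marker rose at 2 h, and at 24 h 2 endothelial and 1 adventitial markers fell and 2 smooth muscle markers rose. At 24 h 1 macrophage and 1 adventitial marker were lower in CsA than in WT. The 24 h response was lower in CsA for 6 of 7 macrophage and 4 of 7 endothelial markers and higher for 1 smooth muscle marker. Their part in the results was not tested.

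**Figure D4:**
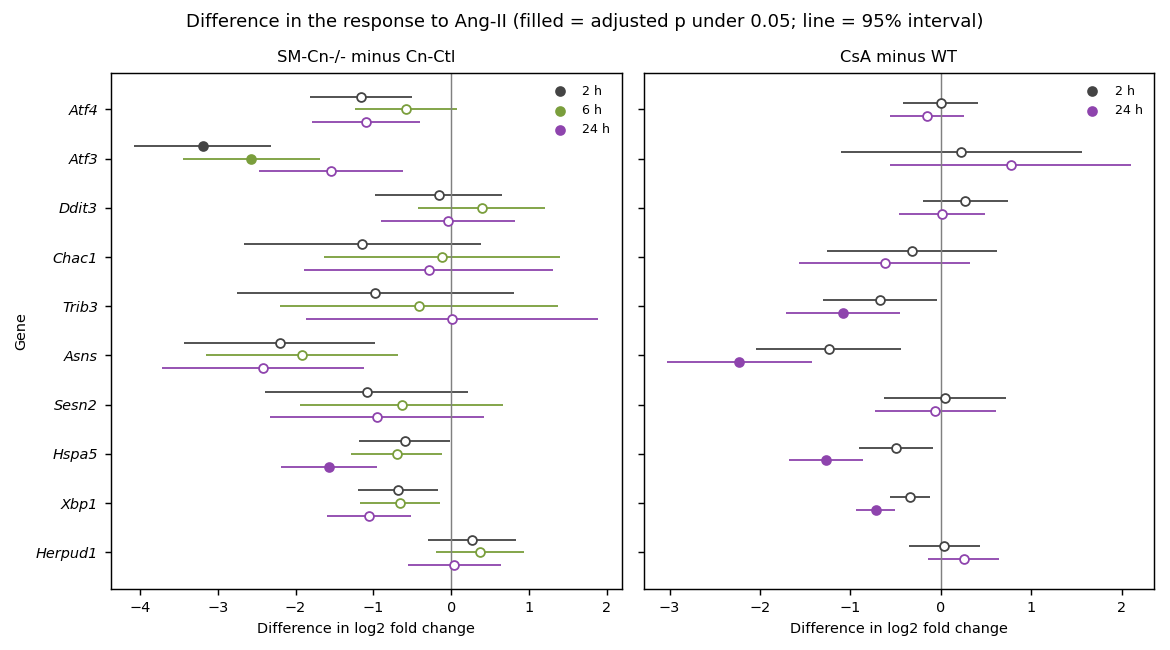
Difference in the log2 response to Ang-II (horizontal axis) for the 10 genes (rows), as libraries labelled SM-Cn-/- minus Cn-Ctl at 2, 6, and 24 h (left) and CsA minus WT at 2 and 24 h (right); lines are 95% confidence intervals and filled points have an adjusted p under 0.05. Hspa5 at 24 h lies at -1.57 on the left and -1.27 on the right, and Atf3 at 2 h at -3.20 on the left and 0.23 on the right.

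Other genes of the pathways were taken from 4 lists, and their counts are read against the shares of all genes called. For the responses these were 6.23%, 3.97%, and 5.62% in Cn-Ctl and 1.13%, 2.34%, and 0.79% in libraries labelled SM-Cn-/- at 2, 6, and 24 h, and 21.4% and 35% in WT and 20.1% and 8.98% in CsA at 2 and 24 h. Among 12 ER stress sensors and regulators of eIF2alpha, 2, 1, and 2 rose in Cn-Ctl at 2, 6, and 24 h. In libraries labelled SM-Cn-/- 0 were called, with 2, 2, and 3 at an unadjusted limma p under 0.05 and 0, 0, and 1 called by DESeq2. In WT 4 and 6 rose at 2 and 24 h and 1 fell at 24 h, and in CsA 2 and 1 rose and 1 fell at each time. Median changes at 2 h were 0.26, 0.23, 0.04, and 0.09 in Cn-Ctl, libraries labelled SM-Cn-/-, WT, and CsA. Ppp1r15a, the stress-induced phosphatase subunit GADD34 that removes the phosphate from eIF2alpha, rose at 2 h in Cn-Ctl (129 ± 38.2 against 29.1 ± 0.270, mean ± SD, n = 3 and 2; log2 fold change 2.09, adjusted p = 1.62e-05). It also rose in WT (176 ± 25.8 against 40.2 ± 11.4, n = 3; 2.14, adjusted p = 7.23e-06) and in CsA (86.4 ± 14.4 against 31.5 ± 2.68, n = 3; 1.43, adjusted p = 0.000529). At 2 h it was lower in libraries labelled SM-Cn-/- than in Cn-Ctl (-1.48, adjusted p = 0.000538) and in CsA than in WT (-1.03, adjusted p = 0.0395). The call between CsA and WT was lost under an alternative and without a library. Ppp1r15b, its constitutive relative, rose in Cn-Ctl (0.96, adjusted p = 0.000359) and WT (0.74, adjusted p = 0.000491) at 2 h and was lower in libraries labelled SM-Cn-/- than in Cn-Ctl at 2 h (-0.66, adjusted p = 0.00764). Atf6 rose in WT (0.39, adjusted p = 0.0138) at 2 h. Eif2s1, which encodes eIF2alpha itself, rose in WT (0.25, adjusted p = 0.0457) and CsA (0.37, adjusted p = 0.00737), and Eif2ak2, the RNA-sensing kinase PKR, fell in CsA (-0.62, adjusted p = 0.00927). Between genotypes 2 of the 12 were lower in libraries labelled SM-Cn-/- at 2 h (3.7% of all genes called), and the response differed for 1 (0.513%). Over the alternatives these counts were 1 to 2 and 0 to 2. The counts of 1 and 2 in Cn-Ctl at 6 and 24 h were 0 to 1 and 0 to 2. That of 2 in CsA at 24 h, in either direction, was 0 to 2, and that of 2 between CsA and WT at 24 h was 0 to 4. Without Ang-II 1 was higher and 2 were lower in CsA than in WT (25.2% of all genes called), and 1 and 2 were lower at 2 and 24 h (1.33% and 5.58%). The 3 of 12 called between CsA and WT untreated and in CsA at 2 h lie near those shares.

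ATF4-linked amino acid genes, of which 29 of 30 were measured, encode amino acid enzymes and carriers, tRNA synthetases, and related stress factors. In Cn-Ctl 7 rose and 1 fell at 2 h, 4 rose at 6 h, and 8 at 24 h, and in libraries labelled SM-Cn-/- 3, 3, and 1 rose. In WT 11 and 20 rose at 2 and 24 h and in CsA 12 and 14, with 1 lower each time, where 21.4%, 35%, 20.1%, and 8.98% of all genes were called in these 4 comparisons. The median changes at 24 h were 0.85, 0.18, 0.72, and 0.35 in Cn-Ctl, libraries labelled SM-Cn-/-, WT, and CsA, against medians over all genes of -0.02 to 0.00. Slc7a5, a large neutral amino acid carrier, rose at 2 h in Cn-Ctl (1.75, adjusted p = 0.00861), WT (1.79, adjusted p = 1.31e-06), and CsA (1.97, adjusted p = 3.72e-06), and its change in libraries labelled SM-Cn-/- was 1.06 (adjusted p = 0.187). Slc7a1, the arginine and lysine carrier, rose in Cn-Ctl (1.77, adjusted p = 8.88e-05), libraries labelled SM-Cn-/- (1.204, adjusted p = 0.00857), WT (1.42, adjusted p = 9.12e-05), and CsA (1.46, adjusted p = 0.000161). Gdf15, a stress cytokine, rose in WT (2.61, adjusted p = 7.23e-06) and CsA (2.37, adjusted p = 4.76e-05), with 1.52 (adjusted p = 0.263) in Cn-Ctl and -0.16 (adjusted p = 0.941) in libraries labelled SM-Cn-/-. Ddit4, an inhibitor of mTORC1, rose in Cn-Ctl (1.36, adjusted p = 0.0351), libraries labelled SM-Cn-/- (1.75, adjusted p = 0.00955), WT (1.96, adjusted p = 5.69e-06), and CsA (0.79, adjusted p = 0.0124).

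Mthfd2, a mitochondrial one-carbon enzyme, was higher in libraries labelled SM-Cn-/- than in Cn-Ctl at 2 h (1.18, adjusted p = 0.0346). It rose at 2 h in libraries labelled SM-Cn-/- (88.6 ± 11.8 against 11.5 ± 2.01, n = 3; 2.90, adjusted p = 3.95e-05), in Cn-Ctl (2.09, adjusted p = 0.000423), in WT (1.94, adjusted p = 1.89e-06), and in CsA (0.74, adjusted p = 0.00953). The difference in its response between genotypes was 0.81 (adjusted p = 0.727). Slc7a1 (-1.16, adjusted p = 0.00397) and Eprs, a tRNA synthetase (-0.87, adjusted p = 0.00346), were lower in libraries labelled SM-Cn-/- at that time. At 2 h Eprs was also lower in CsA than in WT (-0.45, adjusted p = 0.00739), Sars, the seryl-tRNA synthetase, was higher (0.28, adjusted p = 0.04998), and Wars, the tryptophanyl-tRNA synthetase, fell within CsA (-1.15, adjusted p = 0.00119). The 2 calls between CsA and WT, Eprs and Sars, went down to 0 under an alternative and without a library. Of the 29 genes, 1 was lower in libraries labelled SM-Cn-/- at 6 h (1.98% of all genes called), and at 24 h 7 were lower and 1 was higher (4.94%). The 6 h count was 0 to 2 over the alternatives. Without Ang-II 8 were higher and 3 lower in CsA than in WT, where 25.2% of all genes were called, and 1 was higher and 4 lower at 24 h (5.58%). This 24 h count of 5 between CsA and WT was 0 to 10 over the alternatives and 0 to 9 without a library. The difference in response was called for 0 between genotypes at 2, 6, and 24 h by limma, with 5, 5, and 10 at an unadjusted p under 0.05 and 0, 0, and 1 by DESeq2. Between CsA and WT it was called for 1 at 2 h, smaller in CsA (0.146% of all genes), and 7 at 24 h, of which 6 were smaller (9.42%). Over the alternatives these 2 counts were 0 to 4 and 5 to 9. At 24 h the Cn-Ctl count of 8 was 2 to 12 over the alternatives (3 to 9 without a library), the CsA count of 15 in either direction was 8 to 19 (6 to 13), and that of 8 between genotypes was 3 to 8 (1 to 5).

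Of 16 ER chaperones and folding enzymes, Hspa5 not counted, 14 rose in WT at 24 h and 2 in CsA, and 8 in Cn-Ctl and 0 in libraries labelled SM-Cn-/-, with none lower, where 35%, 8.98%, 5.62%, and 0.79% of all genes were called. Medians at 24 h were 0.65, 0.10, 0.77, and 0.17. In libraries labelled SM-Cn-/- at 24 h, 4 had an unadjusted limma p under 0.05 and DESeq2 called 0. At 2 h the counts were 1 higher and 1 lower in WT, 1 lower in CsA, 5 higher in Cn-Ctl, and 0 in libraries labelled SM-Cn-/- (3 unadjusted, 0 by DESeq2). The count of 5 was 1 to 8 over the alternatives and 1 to 5 without a library. The 2 h counts in WT and CsA lie below the 21.4% and 20.1% of all genes called there. At 6 h limma called 0 in either genotype, with 3 in Cn-Ctl and 0 in libraries labelled SM-Cn-/- at an unadjusted p under 0.05 and 1 and 0 by DESeq2. Dnajc3, a co-chaperone that also inhibits PERK, rose at 2 h in Cn-Ctl (1.03, adjusted p = 0.00352) and WT (0.71, adjusted p = 0.000156) and was lower in CsA than in WT (-0.47, adjusted p = 0.0396). Its call between CsA and WT was lost under an alternative and without a library. Calr, calreticulin (0.72, adjusted p = 0.0286), Hyou1 (0.70, adjusted p = 0.0381), and Hsp90b1, GRP94 (0.81, adjusted p = 0.04) rose in Cn-Ctl at 2 h, and Sdf2l1 fell in WT (-0.85, adjusted p = 0.0222) and CsA (-1.15, adjusted p = 0.00505). At 24 h 4 of the 16 were lower in libraries labelled SM-Cn-/- than in Cn-Ctl (4.94% of all genes called) and 12 in CsA than in WT (5.58%). The response was smaller for 2 (0.513%) and 10 (9.42%). The count of 12 was 0 with only the groups compared and 6, 1, and 7 without CsA 24 h replicate 2, WT 24 h replicate 2, and WT 24 h replicate 3, and the count of 8 in Cn-Ctl was 4 with only the groups compared or without untreated replicate 2 or 3 or 24 h replicate 3. The counts of 2 in CsA, of 4 and 2 between genotypes, and of 10 went down to 0, 1, 0, and 6 under an alternative or without a library. Without Ang-II 3 were higher and 2 lower in CsA, beside 25.2% of all genes called. Hyou1, an ER chaperone of the HSP70 family, and Manf, a secreted ER protein, were singled out after their values were seen, as the pair with a called difference in response in both experiments. For Hyou1 that difference at 24 h was -1.46 (adjusted p = 0.023) between genotypes and -1.18 (adjusted p = 0.00336) between CsA and WT, and for Manf -1.20 (adjusted p = 0.0266) and -1.12 (adjusted p = 0.00561).

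**Figure D5:**
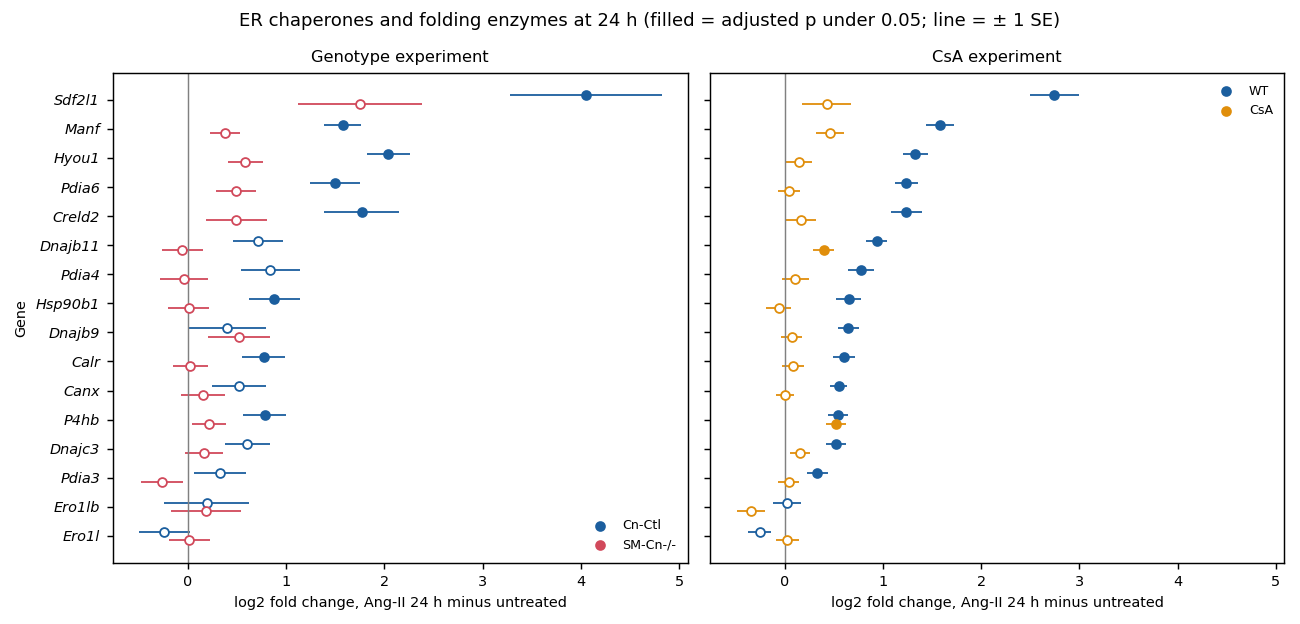
Log2 fold change at 24 h of Ang-II against untreated (horizontal axis) for the 16 ER chaperones and folding enzymes (rows), in the genotype experiment (left; Cn-Ctl blue, libraries labelled SM-Cn-/- red) and the CsA experiment (right; WT blue, CsA orange); lines are ± 1 SE and filled points have an adjusted p under 0.05. In WT 14 points are filled and lie above 0, and in CsA 2.

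Of 13 measured genes for ER-associated degradation and translocation, 2, 1, and 4 rose in Cn-Ctl at 2, 6, and 24 h and 0 in libraries labelled SM-Cn-/- (0, 3, and 1 at an unadjusted limma p under 0.05, and 0, 0, and 1 by DESeq2). At 24 h 3 were lower in those than in Cn-Ctl (4.94% of all genes called). In WT 1 rose at 2 h and 8 rose and 1 fell at 24 h, and in CsA 1 and 2 rose. The single genes at 2 h lie below the 21.4% and 20.1% of all genes called. The counts of 2 and 4 in Cn-Ctl were 0 to 2 and 1 to 5 over the alternatives and 0 to 1 and 1 to 2 without a library, whichever of the libraries compared was left out. The 3 between genotypes were 1 to 5 over the alternatives, and 0 without Cn-Ctl 24 h replicate 3 and 1 without SM-Cn-/- 24 h replicate 2 or 3. Medians at 24 h were 0.40, -0.04, 0.31, and 0.14 in Cn-Ctl, libraries labelled SM-Cn-/-, WT, and CsA. Syvn1, the ubiquitin ligase HRD1 (0.93, adjusted p = 0.0382), rose in Cn-Ctl at 2 h, and Ubxn4, a cofactor of the extraction ATPase, rose in Cn-Ctl (0.71, adjusted p = 0.0489), WT (0.55, adjusted p = 0.00102), and CsA (0.46, adjusted p = 0.00512). CsA differed from WT in 1 gene untreated (25.2% of all genes called) and 1 at 24 h (5.58%), both lower, and in 1 response at 24 h, which was smaller (9.42%). These single genes lie near or below those shares.

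Among themselves, the members did not follow 1 time course. Across group means of log2 signal, Hspa5 and Xbp1 had a Pearson correlation of 0.967 over the 8 genotype groups and 0.951 over the 6 CsA groups, whereas Atf3 and Atf4 had 0.820 and 0.640. Trib3 and Asns had 0.584 and 0.844, and Atf3 and Hspa5 had 0.298 and -0.202. These are descriptions over groups whose means share libraries, scaling, and time points, and no test was run. Of 13432 protein-coding genes measured in both experiments, those most like each member, ranked by the lower of its 2 correlations, were Fnip2 (0.979 and 0.983), Tmem33, and Dnajb1 for Atf3. They included Tnfrsf12a (0.980 and 0.989) and Trim16 for Atf4. Likewise they were Sec23b (0.935 and 0.969), Mboat1, and Manf for Hspa5, and Adamts4 (0.937 and 0.968), Farp1, and Tuba1a for Xbp1. For Asns they were S100a9 (0.931 and 0.931), Tbrg4, and Adam12, for Trib3 Hdc (0.919 and 0.940), Trpv4, and Tmem252, and for Chac1 Zc3h10 (0.874 and 0.880), Ticam1, and Uap1. The lower correlations of the best match for Sesn2 (U2af1l4, 0.864), Herpud1 (Tro, 0.855), and Ddit3 (Dedd, 0.726) were below these.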

How the data were processed

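Aorta RNA was sequenced from oligo-dT libraries on an Illumina Genome Analyzer IIx. Per the labels, reads were mapped with Bowtie 0.12.7 and counted with RSEM 1.16 on GRCm38. The authors deposited 1 table per experiment with a normalised signal per gene and library. The scaling tool, the authors' test, and the strand of counting are not given in the sources used here. Each value was (reads + 0.5) divided by a scaled library size in units of 1 M reads, so whole reads could be recovered, with 100% of values within 0.001 of a whole number.

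The main test was limma 3.58.1 with a trend (R 4.3.3) on log2(signal + 0.5), fitted once for each experiment with every group as a coefficient. It covered protein-coding genes with a signal of at least 1 in at least 2 libraries, with Benjamini-Hochberg adjustment over all genes tested, and a difference in response is the interaction contrast. Alternatives were pseudocounts of 1 and 0.1, no filter, all genes, quantile and median-ratio scaling, a fit of only the groups compared, a replicate block, edgeR 4.0.16 and DESeq2 1.42.0 on recovered reads, and each library left out in turn. A group left with 1 library was assumed to vary like the others.

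Named genes were the 10 members in every comparison. From the 4 pathway lists, for the 2 h responses and the 2 h differences between treated groups, they were up to 4 called genes per list with the largest absolute change and a mean signal of at least 5 in 1 group. For likeness they were the 3 genes with the highest lower correlation, other members left out, and 1 result is not reported here. The members and lists were chosen with earlier results of these data known. The steps were tested on simulated data.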

Additional observations from a re-analysis of the deposited data

Results flagged for a closer look

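Between genotypes, the log2 response to Ang-II differed by -3.20 for Atf3 at 2 h, by -2.57 for Atf3 at 6 h, and by -1.57 for Hspa5 at 24 h (libraries labelled SM-Cn-/- minus Cn-Ctl). Between CsA and WT, it differed at 24 h by -1.27 for Hspa5, -0.72 for Xbp1, -1.08 for Trib3, and -2.23 for Asns (CsA minus WT). Each of these differences between groups passed limma's test of the interaction contrast, adjusted over all genes. Groups of 2 or 3 libraries were too small to look for single libraries far from the rest.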

How the results depend on the processing

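Of 52 called member values, 498 of 520 refits with another setting and 266 of 331 refits without a library kept the call, and 0 turned direction. The number of members called in Cn-Ctl at 2 h was 4, and 2 with quantile normalization (2 to 4 without a library). At 6 h it was 3, and 1 with only the groups compared (0 to 2), and at 24 h it was 4, and 2 with only the groups compared (2 to 4). For libraries labelled SM-Cn-/- 0 became 1 with DESeq2 at 6 and 24 h and 1 with quantile normalization at 24 h. WT at 2 h went from 8 to 5 with quantile normalization, and CsA at 24 h from 2 to 1 with only the groups compared. Between genotypes at 24 h the count was 4 (0 to 3 without a library), and between CsA and WT untreated 5 (3 to 4). At 2 h CsA against WT gave 1, and 0 with quantile normalization, with only the groups compared, and with the replicate block (0 to 1). At 24 h it gave 1, and 2, 0, and 3 with quantile normalization, only the groups compared, and DESeq2 (1 to 2). Differences in response between genotypes numbered 1 at 2 h (3 with DESeq2), 1 at 6 h (0 with only the groups compared; 0 to 1 without a library), and 1 at 24 h (2 with the replicate block, 4 with DESeq2; 0 to 2 without a library). Between CsA and WT at 2 h 0 became 1 with DESeq2. The replicate block also ended the call of Atf3 between untreated CsA and WT (adjusted p = 0.0553). Same-numbered libraries deviated together with a correlation of -0.374 to 0.339 in the genotype experiment and -0.389 to 0.377 in the CsA experiment, so the numbers were not taken as a pairing. With quantile normalization, uncalled changes turned sign for Hspa5 (-0.055) and Xbp1 (-0.11) in CsA at 2 h and Chac1 (-0.095) between untreated CsA and WT. Without 1 library, uncalled changes ranged from -0.095 to 1.27 for Sesn2 in Cn-Ctl at 6 h, -0.095 to 1.37 for Chac1 in Cn-Ctl at 24 h, -0.027 to 0.41 for Sesn2 between CsA and WT at 2 h, and -1.32 to 0.046 for the genotype difference in the Sesn2 response at 6 h. Direction was checked for 149 of 220 member values, those called or larger than their SE, a limit set after seeing the results. The other 71 carry no stated direction. Counts of the pathway lists moved by over 1.5 times in 256 of 1488 refits. The causes were not tested. In the genotype experiment Chac1, Trib3, Sesn2, and Asns rested on 3 to 29, 2 to 56, 11 to 100, and 15 to 119 reads per library, and this depth limits the precision of their values.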

Other observations

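Several ER chaperone genes outside the 10 members were picked here after their values were seen. Pdia6, a protein disulfide isomerase, had a signal at 24 h, set against untreated, of 214 ± 39.6 against 89.6 ± 5.99 in WT and 129.9 ± 0.665 against 126 ± 10.5 in CsA (mean ± SD, n = 3). The limma log2 fold changes were 1.24 (adjusted p = 1.58e-06) and 0.05 (adjusted p = 0.831), and the response differed by -1.19 (adjusted p = 0.00319). In the genotype experiment Pdia6 had 257 ± 31.5 against 90.4 ± 0.527 in Cn-Ctl (n = 2) and 142 ± 13.3 against 101 ± 11.8 in libraries labelled SM-Cn-/- (n = 3), and the difference in response was -1.01 (adjusted p = 0.189). Manf had 164 ± 23.3 against 54.6 ± 2.44 in Cn-Ctl, 78.4 ± 9.05 against 60.4 ± 7.02 in libraries labelled SM-Cn-/-, 125 ± 24.9 against 41.1 ± 3.63 in WT, and 72.4 ± 3.41 against 52.9 ± 8.50 in CsA. Mthfd2 was higher in untreated CsA than in untreated WT (1.05, adjusted p = 0.00134), as Asns was, and its 24 h response was smaller in CsA (-1.31, adjusted p = 0.00801).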
